A study of Mus musculus with 6 samples.

Results

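The genes described here are the cytokine, chemokine and antimicrobial defense genes of newborn mouse skin epithelium, read in 6 RNA-seq libraries. Members were taken by symbol: the Ccl and Cxcl chemokine genes, the beta-defensin genes (Defb), the genes of interleukin-1 alpha and beta and of the related Il1f cytokines, and 10 further genes given by name (Il1rn, Il18, Il33, Tslp, Tnf, Csf1, Csf2, Lcn2, Camp and Ptgs2). The rule found 95 of the 24453 rows of the count files. They comprised 36 chemokine genes, 10 genes of the interleukin-1 family, 44 defense genes (the beta-defensins, Lcn2 and Camp) and 5 other cytokine or mediator genes.

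Keratinocytes, the epithelial cells of the skin, act as sentinels as well as a barrier. They release chemokines that recruit leukocytes, interleukin-1 family cytokines that alert neighbouring cells, and cationic peptides such as the beta-defensins that kill microbes. Many of these genes are nearly silent in resting skin and are switched on through NF-κB and AP-1 within minutes to hours of injury or infection, while a few chemokines are made constantly. Ring1a and Ring1b are the alternative catalytic subunits of Polycomb repressive complex 1, which ubiquitylates histone H2A and keeps developmental genes silent, mostly at CpG-rich promoters.

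The libraries came from cells of the back skin of mice at postnatal day 0, sorted by flow cytometry. A group of 3 libraries was labelled control and a group of 3 was labelled 2KO, with the genotype Ring1a-/- Ring1b-/-. The labels do not name the Cre driver of the deletion, the alleles carried by the controls, the strain or whether animals were pooled, so p-values measure the spread between these libraries, which may be partly technical. The labels name the cells hair follicle cells, whereas the sorting protocol describes an interfollicular gate (EpCAM+, Sca1+, α6-integrin high). The gate can also hold cells that stuck to the sorted ones, and the skin was digested with collagenase and then trypsin before the sort.

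Library totals ran from 24759973 to 30798564 counts. Markers of both keratinocytes and hair follicle cells were present: the summed level of the keratinocyte list was 17371 to 30586 CPM (TMM-scaled counts, brought to a common library size) in the controls and 24818 to 31965 CPM in the 2KO libraries, and that of the hair follicle list was 2125 to 2388 CPM and 2192 to 2471 CPM. By the edgeR test used below, none of the 10 keratinocyte markers was called, whereas 3 of the 10 hair follicle markers were called lower in 2KO. For comparison, 989 of all 14972 tested genes were called higher and 362 lower. Of the hair follicle estimates, 8 were below 0 and 2 above, with a median log2 fold change of -0.50 (-0.02 for all tested genes). A shift in cell composition between the groups was not tested. Counts of the 2 deleted genes overlapped between groups. Ring1, the gene of Ring1a, stood at 19.5, 22.4 and 3.37 CPM in controls 1 to 3 and at 1.84, 7.34 and 14.1 CPM in 2KO 1 to 3, and Rnf2, the gene of Ring1b, at 67.7, 79.5 and 47.1 CPM against 75.3, 66.4 and 89.2 CPM. The files give counts per gene, not per exon, so these values do not show whether a deleted exon was missing. The groups are therefore called by their labels throughout: "higher in 2KO" means higher in the libraries labelled 2KO.

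Most members were silent or nearly so. Of the 95 members, 37 had no count in any library (8 chemokine genes, 28 defense genes and Csf2), which allows a level of up to 0.0334 CPM over the control group and 0.0371 CPM over the 2KO group (3 counts over the group, covering counting error only). A further 33 had some counts but too few for the test, with at most 138 counts over all 6 libraries. The remaining 25 members were tested: 11 chemokine genes, 8 interleukin-1 family genes, 3 defense genes and 3 others.

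Among the 25 tested members, 2 rose in the 2KO libraries, the chemokine gene Cxcl12 and the defensin gene Defb4, and none fell (edgeR quasi-likelihood test, adjusted p under 0.05 over all 14972 tested genes). Over all tested genes, 9.02% were called in either direction and 6.61% were called higher, so the members' share, 2 of 25 (8%), is close to the background. A member could pass the filter on low counts through the 2KO libraries alone, as Defb4 did, so these shares describe the tested genes and not the families. At an unadjusted p under 0.05, edgeR placed 7 members higher and 5 lower. Of all 14972 tested genes, 1895 were higher and 1332 lower at that level. Groups did not overlap for 11 of the 25 members, with the 2KO libraries above in 7 and below in 4, against 28.4% of all tested genes. The median log2 fold change of the tested members was 0.52, with 13 estimates above 0 and 12 below, beside -0.02 for all tested genes.

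**Figure D1:**
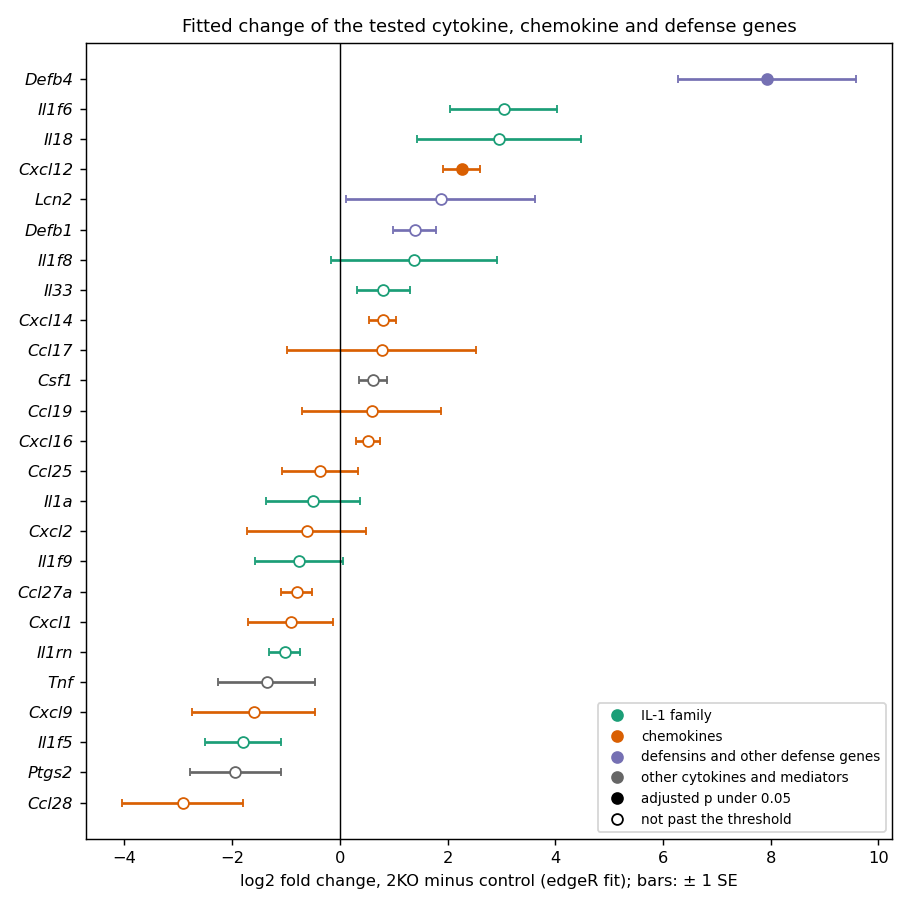
Log2 fold change (2KO minus control, horizontal axis) of each of the 25 tested members with bars of 1 standard error, from the edgeR fit. The estimates lie on both sides of 0, and those past the adjusted threshold are Cxcl12 and Defb4.

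Cxcl12 encodes the chemokine SDF-1, which guides leukocytes, progenitor cells and endothelium through the receptor Cxcr4, and which the atypical receptor Ackr3 scavenges. The gene lies on chromosome 6, 117168535 to 117181367, plus strand (GRCm38, the mm10 build). The controls gave 5.50, 5.39 and 2.75 CPM and the 2KO libraries 21.84, 18.62 and 24.99 CPM. Every 2KO library lay above every control. The means were 4.55 ± 1.56 CPM (SD, n = 3) and 21.8 ± 3.18 CPM (SD, n = 3), a log2 fold change of 2.26 (SE 0.34, edgeR adjusted p = 0.00375). The call held under each of the 15 alternative settings, with log2 fold changes of 1.89 to 2.58. In bulk libraries, more cells of an expressing type and more RNA per cell cannot be told apart.

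**Figure D2:**
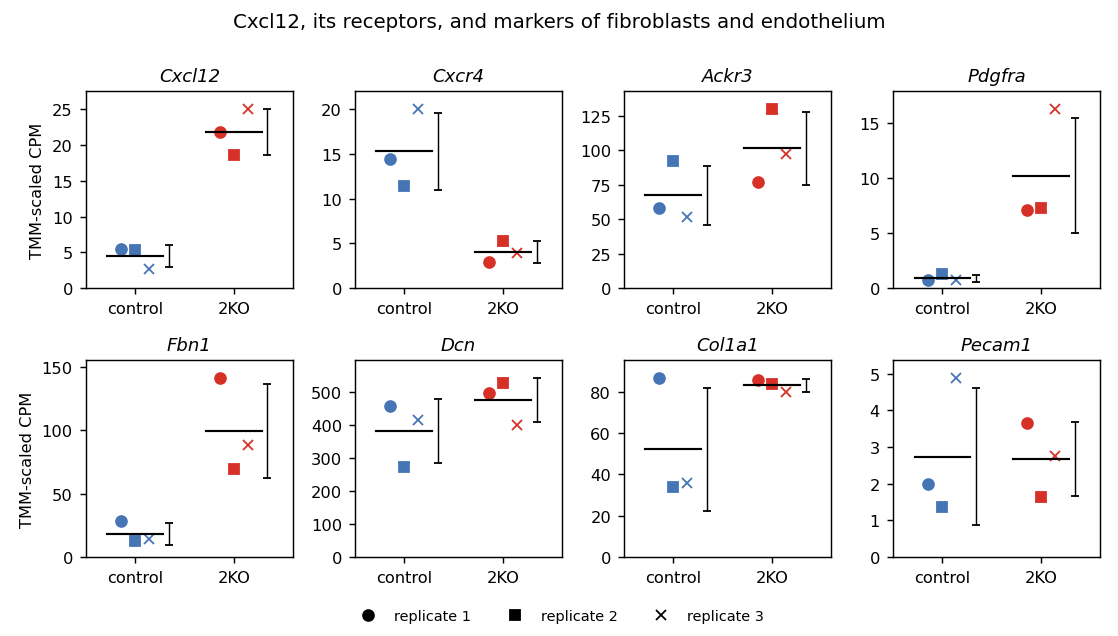
CPM of Cxcl12 and the genes of its receptors and of other cell types by group; points are libraries, bars the mean with 1 SD, and each panel has its own axis from 0. Cxcl12 is higher in every 2KO library (18.62 to 24.99 CPM against 2.75 to 5.50 CPM) while Cxcr4 is lower in every one.

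The receptor gene Cxcr4 went the other way. It stood at 14.4, 11.4 and 19.9 CPM in the controls and at 2.90, 5.31 and 3.96 CPM in the 2KO libraries. The groups did not overlap, and the log2 fold change was -1.91 (SE 0.36, edgeR adjusted p = 0.0110). The call was lost without control 3 (edgeR adjusted p = 0.0514) and without both libraries numbered 3 (0.134). Ackr3 was 57.9, 91.8 and 51.8 CPM in the controls and 77.2, 129.5 and 96.9 CPM in the 2KO libraries, overlapping between groups (log2 fold change 0.59, edgeR adjusted p = 0.244).

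Cxcl12 is made by fibroblasts and endothelium as well as by some epithelial cells, and a few markers of those cells were higher with it. The fibroblast markers Pdgfra and Fbn1 were higher in 2KO. Pdgfra was 0.71, 1.26 and 0.72 CPM in the controls and 7.06, 7.31 and 16.2 CPM in the 2KO libraries (edgeR adjusted p = 0.0035). The other 7 of 9 tested fibroblast markers, the collagen gene Col1a1 and the proteoglycan gene Dcn among them, did not pass. Of the 9 estimates, 5 were above 0 and 4 below. Postn was lower in every 2KO library, at 635, 817 and 813 CPM in the controls and 384, 581 and 396 CPM in 2KO (edgeR adjusted p = 0.0598). The summed level of the list was 1232 to 1413 CPM in the controls and 1101 to 1371 CPM in 2KO. Of 6 tested endothelial markers, the lymphatic regulator gene Prox1 rose, from 4.43, 16.4 and 6.90 CPM to 69.8, 51.6 and 60.8 CPM (edgeR adjusted p = 0.00541), and the list summed to 13.98 to 21.5 CPM against 55.2 to 85.8 CPM. Prox1 carried that rise: without it the endothelial list summed to 9.54, 5.10 and 11.7 CPM in the controls and 16.1, 3.61 and 5.57 CPM in 2KO. Pecam1, which marks all endothelium, was 1.99, 1.36 and 4.87 CPM against 3.65, 1.64 and 2.75 CPM. Their part in the Cxcl12 result was not tested.

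The 250 bases before the annotated starts of Cxcl12 and of Ccl28, the chemokine gene with the lowest fitted change, are shown as examples. They are RefSeq sequences on GRCm38.p6, 5′ to 3′ on the gene's strand, with each CG in capitals. The Cxcl12 window is chr6:117168285-117168534, plus strand, and the Ccl28 window is chr13:119623569-119623818, plus strand.
Cxcl12: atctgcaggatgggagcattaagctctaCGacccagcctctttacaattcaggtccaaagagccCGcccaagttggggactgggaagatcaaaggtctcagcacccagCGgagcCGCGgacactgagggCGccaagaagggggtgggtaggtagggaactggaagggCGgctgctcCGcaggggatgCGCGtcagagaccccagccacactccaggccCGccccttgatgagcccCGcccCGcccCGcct
Ccl28: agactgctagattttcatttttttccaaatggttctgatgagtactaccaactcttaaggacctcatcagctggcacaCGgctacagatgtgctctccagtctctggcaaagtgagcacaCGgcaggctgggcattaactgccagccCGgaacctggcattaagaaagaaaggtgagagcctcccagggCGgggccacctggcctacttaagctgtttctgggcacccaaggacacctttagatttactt
The Cxcl12 window holds 14 CG pairs and that of Ccl28 holds 4, both between the quartiles of all promoters (2 and 16). Over the 79 promoters of the 68 members matched in the RefSeq table the median was 3, over the 28 promoters of tested members it was 4, and over all 32851 promoters of the same length it was 6. The windows of Ptgs2 and Cxcl1, whose fitted changes were below 0, hold 13 and 10 CG pairs, and 1 of the 2 Ccl25 windows holds 45. No binding or histone data were used here, so these counts describe the sequence alone.

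The highest level per kilobase of transcript among the members belonged to Cxcl14, a chemokine that resting epithelium makes constantly, at 130 CPM per kb over the 6 libraries. Its levels were 135.7, 205.7 and 180.4 CPM in the controls and 207.5, 364.0 and 332.1 CPM in the 2KO libraries. Every 2KO library lay above every control, by a narrow margin for 2KO 1. The log2 fold change of 0.79 (SE 0.24) did not pass (edgeR adjusted p = 0.0773), although it passed by DESeq2 (adjusted p = 0.0335) and by edgeR without 2KO 1 (adjusted p = 0.0206). Without any other single library the edgeR adjusted p was 0.0935 to 0.233. Cxcl16, a membrane-bound chemokine that binds Cxcr6 on T cells, was also above the controls in every 2KO library, at 29.5, 30.2 and 24.4 CPM against 19.3, 21.7 and 17.7 CPM (log2 fold change 0.52, edgeR adjusted p = 0.210).

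The skin-homing chemokine genes of the epithelium did not pass the test. Ccl27a and Ccl28 both signal through Ccr10, which draws memory T cells into skin and mucosa. Ccl27a was 16.5, 28.1 and 23.7 CPM in the controls and 14.3, 14.8 and 10.0 CPM in the 2KO libraries, with all 2KO libraries below (log2 change -0.80 with SE 0.29, edgeR adjusted p = 0.131). Ccl28 was 3.33, 3.42 and 1.18 CPM in the controls and 0.04, 0.07 and 0.94 CPM in 2KO. Here 2KO 3 sat close to control 3 and the other 2KO libraries held 1 and 2 counts (log2 change -2.92 with SE 1.12, edgeR adjusted p = 0.160). Without 2KO 3 the log2 fold change was -5.49 (edgeR adjusted p = 0.0224). DESeq2 called Ccl28 lower with all libraries (adjusted p = 0.0373). Reads of Ccl27a can be shared with its near-identical copy Ccl27b and, if counting ignored strand, with the overlapping Il11ra1. Cxcl16 likewise overlaps Zmynd15. The same limit holds for Ccl25 (Elavl1), Ccl19 (4930578G10Rik), Il1a (Gm14023) and Il18 (Bco2 and Tex12).

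The other tested chemokine genes were low. Ccl25, best known from thymus and gut, was 2.13, 0.61 and 2.42 CPM against 1.25, 1.17 and 1.57 CPM. Ccl17, a ligand of Ccr4 made by dendritic cells, was 0, 0.61 and 0.46 CPM against 0, 1.84 and 0 CPM. Ccl19, a ligand of Ccr7, was 0.21, 0.39 and 0.56 CPM against 0, 0.30 and 1.45 CPM, and Cxcl9, an interferon-induced ligand of Cxcr3, was 1.77, 0.42 and 0.36 CPM against 0.63, 0.17 and 0.04 CPM. In each of these 4 the groups overlapped and the test did not pass.

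**Figure D3:**
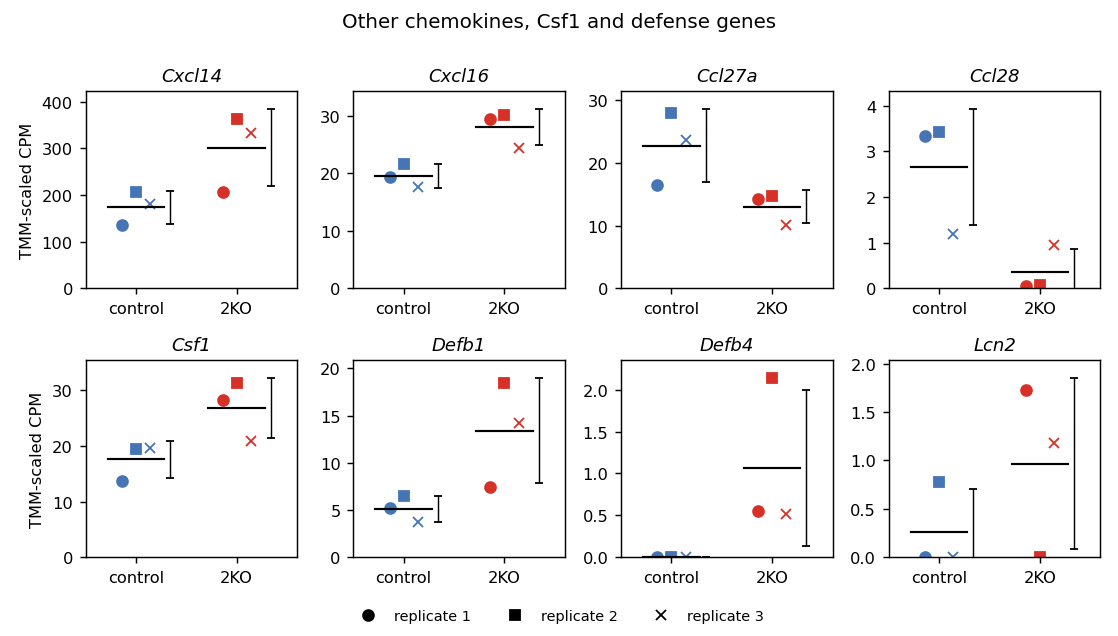
CPM of further members by group; points are libraries, bars the mean with 1 SD, and each panel has its own axis from 0. Cxcl14, Cxcl16 and Csf1 are above the controls in every 2KO library, and Ccl27a and Ccl28 are below them in every one, none of them past the adjusted threshold.

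Csf1, the growth factor of macrophages and Langerhans cells, was 13.7, 19.5 and 19.6 CPM in the controls and 28.4, 31.2 and 20.8 CPM in the 2KO libraries. The 2KO libraries lay above, 2KO 3 only just (log2 change 0.61 with SE 0.26, edgeR adjusted p = 0.213). The leukocytes these ligands act on gave little signal. Ptprc, the common leukocyte antigen CD45, was 0.57, 1.71 and 1.93 CPM in the controls and 0.67, 0.27 and 1.92 CPM in 2KO. Cd207, which marks Langerhans cells, had no count in any library, which by itself does not show whether such cells were present. Summed over the marker lists, leukocytes in common gave 8.73 to 15.8 CPM in the controls and 5.87 to 11.4 CPM in 2KO, macrophages 29.8 to 43.1 CPM and 16.4 to 32.5 CPM, and neutrophils 0.387 to 0.993 CPM and 1.14 to 3.02 CPM. The Langerhans and dendritic list summed to 24.1 to 37.7 CPM and 73.1 to 113.9 CPM, with 2 of its 6 tested markers higher, H2-Ab1 and Mfge8, both of which other cells also express. Mfge8 made up most of that sum in every 2KO library, at 75.999, 84.311 and 57.635 CPM against 16.497, 13.011 and 18.31 CPM in the controls. Of the 6 estimates, 5 were above 0 and 1 below, that of Cd74. Cd74 was 8.62, 5.07 and 11.97 CPM in the controls and 14.2, 5.17 and 2.79 CPM in 2KO, overlapping between groups. Of the T cell list, Cd3d had no count, and the only tested marker, Thy1, which fibroblasts also express, was higher in 2KO (edgeR adjusted p = 0.0226). The part of these cells in the levels of the members was not tested.

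Tnf, Ptgs2 and the neutrophil chemokine genes Cxcl1 and Cxcl2 are classical acute response genes. Tnf encodes tumour necrosis factor, and Ptgs2 encodes cyclooxygenase-2, the inducible enzyme of prostaglandin synthesis. Cxcl1 and Cxcl2 call neutrophils through Cxcr2. Tnf was 58.8, 12.9 and 11.5 CPM in the controls and 25.9, 4.57 and 2.00 CPM in 2KO. Ptgs2 was 77.4, 18.0 and 17.5 CPM in the controls and 19.96, 7.98 and 1.37 CPM in 2KO. Cxcl1 was 36.3, 8.75 and 12.3 CPM against 23.4, 2.44 and 4.71 CPM, and Cxcl2 was 22.0, 3.13 and 3.14 CPM against 15.6, 0.43 and 2.47 CPM. In both groups the library numbered 1 was the highest for each of these 4 genes, and the groups overlapped.

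None of the 4 passed the test. The log2 fold changes were -1.36 for Tnf (SE 0.90), -1.94 for Ptgs2 (SE 0.85), -0.91 for Cxcl1 (SE 0.79) and -0.61 for Cxcl2 (SE 1.103), with edgeR adjusted p of 0.445, 0.221, 0.586 and 0.818. Control 1 exceeded the mean of controls 2 and 3 by 4.84 times for Tnf, 4.37 times for Ptgs2, 3.44 times for Cxcl1 and 7.02 times for Cxcl2. In 2KO the same ratios were 7.88, 4.27, 6.55 and 10.7. Without control 1 the log2 fold changes were -0.16 for Tnf, -0.84 for Ptgs2, -0.04 for Cxcl1 and 0.98 for Cxcl2. Without 2KO 1 they were -3.06 for Tnf, -2.99 for Ptgs2, -2.42 for Cxcl1 and -2.70 for Cxcl2, none past the threshold.

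Immediate early genes, which respond to tissue dissociation as well as to injury, moved with these 4 genes. All 18 tested genes of that list were highest among the controls in control 1, and 14 of the 18 were highest among the 2KO libraries in 2KO 1. Of the 18, 3 fell in 2KO (Fos, Jun and Zfp36, edgeR adjusted p = 0.0324, 0.0336 and 0.0315) and none rose. Leaving out control 1 left 1 of these calls, and leaving out 2KO 2 or 2KO 3 left 0, while 7 genes were called lower without 2KO 1. Over the list, the median change was -0.97 on the log2 scale, beside -0.02 for all tested genes, and its summed level was 6174 to 15443 CPM in the controls and 3413 to 7177 CPM in 2KO. The NF-κB inhibitor gene Tnfaip3 had the same shape, at 527, 96.0 and 84.8 CPM against 109, 19.1 and 45.3 CPM. The part of dissociation in these levels was not tested.

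**Figure D4:**
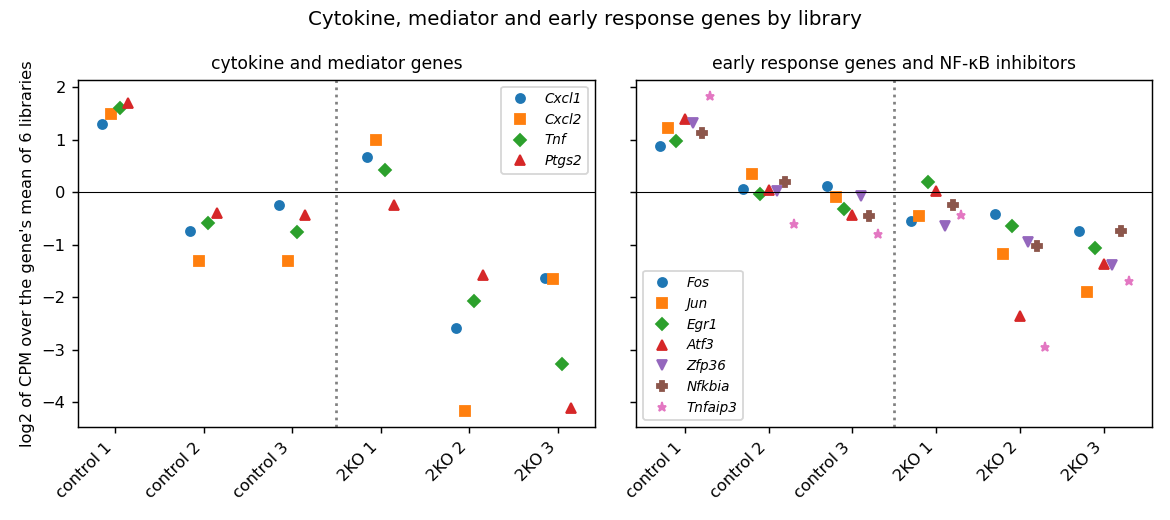
Log2 of each gene's CPM over its mean of the 6 libraries (vertical axis), by library, for Cxcl1, Cxcl2, Tnf and Ptgs2 (left) and for early response and NF-κB inhibitor genes (right). In both groups the library numbered 1 is the highest for each of the 4 genes on the left.

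The promoters of Cxcl1, Cxcl2 and Tnf are shown because these genes varied together among libraries of one group. The windows are the 250 bases before the start, from RefSeq on GRCm38.p6: chr5:90890995-90891244, plus strand, for Cxcl1; chr5:90903649-90903898, plus strand, for Cxcl2; and chr17:35202008-35202257, minus strand, for Tnf. Capitals mark letters of the κB type (GGGA and CC with any 4 bases between them, on either strand, overlapping matches joined) or the TATA letters TATAAA.
Cxcl1: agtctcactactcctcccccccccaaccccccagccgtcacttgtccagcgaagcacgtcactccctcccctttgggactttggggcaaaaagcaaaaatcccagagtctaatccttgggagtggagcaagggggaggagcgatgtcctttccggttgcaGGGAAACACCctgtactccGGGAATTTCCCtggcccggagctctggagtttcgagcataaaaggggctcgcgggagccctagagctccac
Cxcl2: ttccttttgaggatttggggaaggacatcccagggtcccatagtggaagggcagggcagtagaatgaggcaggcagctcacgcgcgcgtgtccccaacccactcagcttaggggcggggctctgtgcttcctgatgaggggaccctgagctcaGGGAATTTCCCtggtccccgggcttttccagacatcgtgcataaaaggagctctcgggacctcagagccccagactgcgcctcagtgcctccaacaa
Tnf: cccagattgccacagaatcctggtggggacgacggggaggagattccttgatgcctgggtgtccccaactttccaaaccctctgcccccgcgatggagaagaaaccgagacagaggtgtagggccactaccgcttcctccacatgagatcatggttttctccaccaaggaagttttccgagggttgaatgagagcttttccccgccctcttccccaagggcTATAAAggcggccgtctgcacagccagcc
Cxcl1 held 3 κB-type matches, beginning 90, 71 and 70 bases before the start. The last pair overlap in a single stretch and match on opposite strands. Cxcl2 held that stretch too, 97 and 96 bases before its start. Tnf held no κB-type match in this window and a TATAAA 29 bases before the start, and Ptgs2 held none of the letters searched. κB-type letters occurred in 17.6% of all 32851 promoters, in 21.5% of the 79 member promoters and in 32.1% of the 28 promoters of tested members. The letters are a description of the sequence, not a site.

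Downstream of Ptgs2, the terminal synthase gene Ptges, which makes prostaglandin E2, rose. It stood at 22.0, 22.1 and 23.4 CPM in the controls and 69.3, 54.9 and 44.1 CPM in 2KO. Every 2KO library lay above every control (log2 change 1.32 with SE 0.23, edgeR adjusted p = 0.00698), and the call held under all 15 alternatives. The receptor gene Ptger3 rose as well, from 0.39, 0.19 and 0.36 CPM to 1.88, 1.87 and 5.77 CPM (log2 change 3.32 with SE 0.77, edgeR adjusted p = 0.0261), though 7 alternatives ended that call, among them leaving out any 1 control or 2KO 3 (edgeR adjusted p = 0.0612 to 0.123). Ptgs1, the constitutive cyclooxygenase gene, did not pass (log2 fold change -0.18, edgeR adjusted p = 0.889).

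The interleukin-1 family holds activating ligands and antagonists that compete for the same receptors. Il1rn encodes the interleukin-1 receptor antagonist and had the highest level per kilobase among the family's tested genes, 8.55 CPM per kb over the 6 libraries. It lies on chromosome 2, 24336853 to 24351494, plus strand. Il1rn stood at 44.9, 83.9 and 61.6 CPM in the controls and 24.8, 40.9 and 27.8 CPM in 2KO. All 2KO libraries lay below the controls, and the log2 fold change of -1.03 (SE 0.29) missed the threshold (edgeR adjusted p = 0.0559). DESeq2 called it lower (adjusted p = 0.0105), as did edgeR without control 1 (adjusted p = 0.0415) or without 2KO 2 (adjusted p = 0.04996). Without any other single library the edgeR adjusted p of Il1rn was 0.123 to 0.191.

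The antagonist of the interleukin-36 receptor, encoded by Il1f5, was also lower in every 2KO library. It stood at 8.94, 15.6 and 12.6 CPM in the controls and 0.55, 7.18 and 2.94 CPM in 2KO (log2 change -1.80 with SE 0.71, edgeR adjusted p = 0.171). DESeq2 called Il1f5 lower (adjusted p = 0.0430), and without 2KO 2 the log2 fold change was -2.81 (edgeR adjusted p = 0.0534). The agonist gene Il1f6 (interleukin-36 alpha) was 0.43, 0.55 and 0.33 CPM in the controls and 0.39, 8.08 and 2.31 CPM in 2KO, with 2KO 1 among the controls (log2 change 3.04 with SE 0.99, edgeR adjusted p = 0.0967). Without 2KO 1 the call passed (edgeR adjusted p = 0.0228), as it did by DESeq2 (adjusted p = 0.00834). Without 2KO 2 the log2 fold change was 1.65 (edgeR adjusted p = 0.474), and voom gave 2.26 (adjusted p = 0.349). The 2 other agonist genes overlapped between groups: Il1f8 was 0, 1.07 and 0.23 CPM against 0, 1.94 and 1.45 CPM, and Il1f9 was 0.92, 4.58 and 4.84 CPM against 0.43, 3.24 and 2.43 CPM.

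The alarmin genes were low. Il33, which encodes a nuclear alarmin, was 1.42, 3.39 and 3.73 CPM in the controls and 6.20, 4.11 and 4.67 CPM in 2KO, above in every library but short of the threshold (log2 fold change 0.81, edgeR adjusted p = 0.404). Il1a was 1.06, 1.68 and 0.43 CPM against 0.24, 0.93 and 1.06 CPM, and Il18 was 0, 0.52 and 0.03 CPM against 0.16, 3.70 and 0.51 CPM. Il1b was too low to test, with 1, 9 and 12 counts in the controls and 17, 0 and 6 in 2KO. None of the 8 tested members of the family passed in either direction. At an unadjusted p under 0.05, 3 did (1 higher and 2 lower), beside 3227 of all 14972 tested genes.

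**Figure D5:**
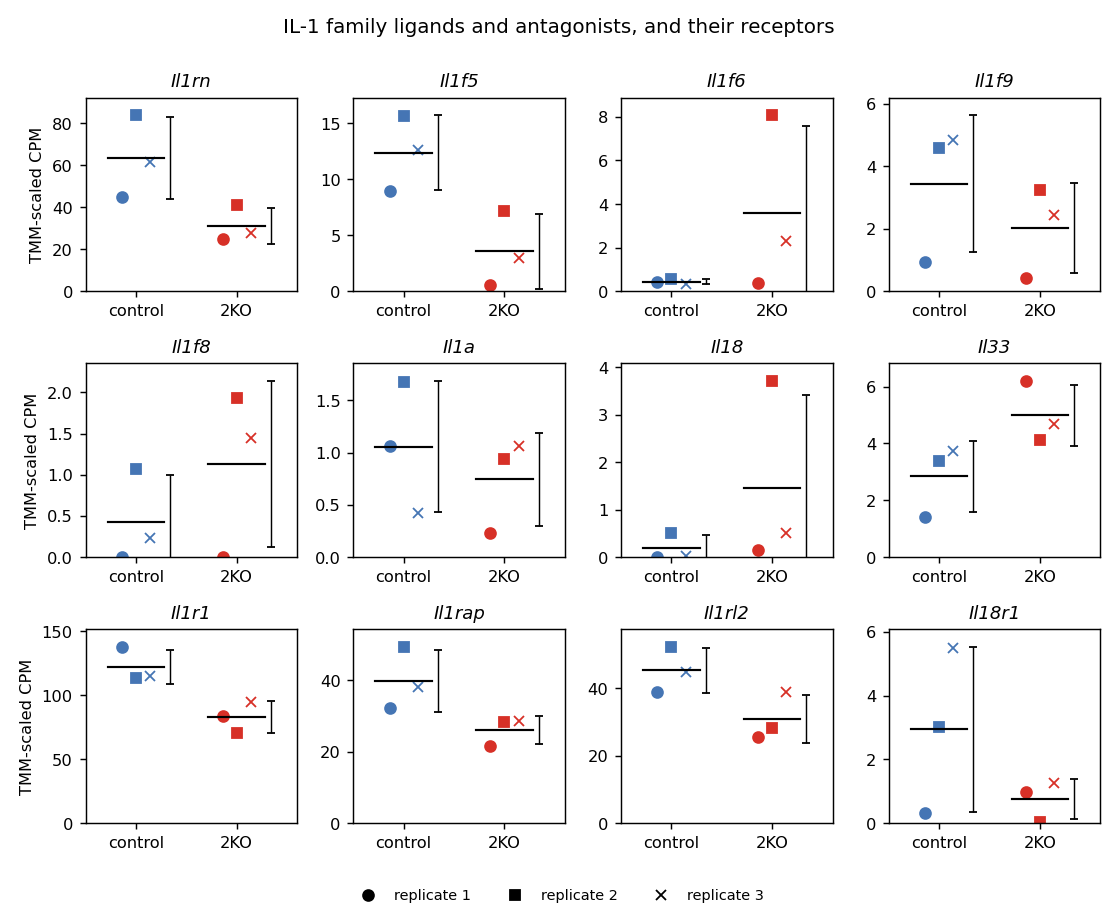
CPM of interleukin-1 family genes and of receptor genes by group; points are libraries, bars the mean with 1 SD, and each panel has its own axis from 0. The antagonist genes Il1rn and Il1f5 are lower in every 2KO library, and Il1f6 is high in 2KO 2 and 2KO 3 but not in 2KO 1.

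None of the family's receptor genes passed the edgeR test. Il1r1, the signaling receptor of interleukin-1, was 137.8, 113.7 and 114.8 CPM in the controls and 83.4, 70.6 and 94.99 CPM in 2KO, with all 2KO libraries below (log2 change -0.56 with SE 0.18, edgeR adjusted p = 0.0993). The shared subunit gene Il1rap was 32.1, 49.3 and 38.2 CPM against 21.7, 28.2 and 28.4 CPM. The interleukin-36 receptor gene Il1rl2 was 38.9, 52.3 and 44.9 CPM against 25.6, 28.1 and 39.0 CPM. Neither passed (edgeR adjusted p = 0.166 and 0.209).

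Among the defense genes, Defb4, an inducible beta-defensin of stratified epithelium, rose. Defb4 lies on chromosome 8, 19198706 to 19201545, plus strand. It had 0 counts in all 3 controls and 14, 64 and 13 counts in 2KO 1 to 3, that is 0.55, 2.14 and 0.51 CPM. Against the limit that a control count of 0 allows (3 counts over the group), the pooled 2KO level was 33.6-fold higher. That figure takes the 91 counts in 2KO as exact and leaves out the spread between libraries. The edgeR log2 fold change was 7.93 (SE 1.65, adjusted p = 0.0252), against 7.44 by DESeq2 and 5.75 by voom. With no count in the controls, the size of this estimate depends on the method and is not a measured fold. Defb4 also passed the filter on low counts through the 2KO libraries alone. Of the 91 counts, 64 came from 2KO 2, and without that library the level was 15.8-fold above the limit. Leaving out any other single library put it 22.02-fold to 42.1-fold above the limit. Of the 14 alternatives that could test Defb4, 7 ended the call. Leaving out any 1 control did so (edgeR adjusted p = 0.0609 to 0.0726), as did leaving out 2KO 2 (edgeR adjusted p = 0.0945).

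Defb1, the constitutive beta-defensin, was above the controls in every 2KO library, at 7.45, 18.49 and 14.24 CPM against 5.18, 6.46 and 3.69 CPM (log2 change 1.39 with SE 0.40, edgeR adjusted p = 0.0648). DESeq2 called it higher (adjusted p = 0.0101), as did edgeR without 2KO 1 (adjusted p = 0.0267). Without any other single library the edgeR adjusted p of Defb1 was 0.0863 to 0.228. Lcn2, which withholds iron from bacteria, was 0, 0.77 and 0 CPM against 1.73, 0 and 1.18 CPM (edgeR adjusted p = 0.619). Among the untested defensin genes, Defb3 had 0, 0 and 1 counts in the controls and 2, 99 and 2 in 2KO, nearly all of them in 2KO 2. Defb14 had 0, 7 and 7 counts against 3, 29 and 5, and the cathelicidin gene Camp had 0, 7 and 8 against 3, 0 and 10. For 13 of the 25 tested members, 2KO 2 was the highest 2KO library. Related beta-defensin genes have similar sequences, and the rule by which shared reads were counted is not stated in the labels.

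Several untested members peaked in the libraries numbered 1, like the acute genes above. Ccl2, the main monocyte chemokine, had 57, 3 and 6 counts in the controls and 72, 0 and 0 in 2KO, and its neighbour Ccl7 had 11, 0 and 5 against 59, 0 and 1. Ccl20, a ligand of Ccr6, had 34, 7 and 5 against 5, 0 and 0, and Tslp, a cytokine of allergic skin, had 39, 0 and 4 against 6, 0 and 0. Il1f10 was highest in control 1 but not in 2KO 1, with 37, 2 and 15 counts against 0, 1 and 0. DESeq2, whose filter kept Il1f10, called it lower (adjusted p = 0.0383).

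The remaining genes of the pathways were read from 3 lists. Of all 14972 tested genes, 9.02% were called, 989 higher and 362 lower, with a median log2 fold change of -0.02. Of 40 receptor and partner genes, 24 were tested and 1 rose (Ptger3) and 1 fell (Cxcr4), with a median log2 fold change of -0.15. Of 38 genes of NF-κB and inflammasome signaling, 36 were tested, none rose (edgeR; DESeq2 called 1) and 2 fell, with a median of -0.12. These 2 were Nlrp10, an epidermal NOD-like receptor gene, at 11.4, 12.3 and 10.5 CPM against 0.43, 2.40 and 0.71 CPM (edgeR adjusted p = 0.0108), and Tlr3, the sensor of double-stranded RNA, at 14.9, 4.65 and 5.13 CPM against 2.43, 0.87 and 1.06 CPM (edgeR adjusted p = 0.0374). Every 2KO library lay below every control for both. The call of Nlrp10 ended without both libraries numbered 3 (edgeR adjusted p = 0.116). For Tlr3, 7 alternatives ended the call, among them leaving out control 1, 2KO 2 or 2KO 3 (edgeR adjusted p = 0.117 to 0.173).

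Of 40 other defense and mediator genes, 21 were tested, 1 rose (Ptges) and 2 fell, with a median log2 fold change of -0.18. Pglyrp4, a bactericidal peptidoglycan recognition protein gene of epithelium, was 4.15, 7.78 and 7.23 CPM in the controls and 0.90, 0.93 and 1.84 CPM in 2KO (log2 change -2.38 with SE 0.52, edgeR adjusted p = 0.0207). Il23a, the specific subunit of interleukin-23, was 3.30, 1.68 and 4.02 CPM against 0.51, 0.47 and 0.24 CPM (log2 change -2.88 with SE 0.70, edgeR adjusted p = 0.0318). Groups did not overlap for either gene. For Pglyrp4, 5 alternatives ended the call, among them leaving out control 2, control 3, 2KO 1 or 2KO 2 (edgeR adjusted p = 0.0511 to 0.0787). For Il23a, 9 did, among them leaving out any 1 library other than control 2 (edgeR adjusted p = 0.0559 to 0.150).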

How the data were processed

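Sorted cells of newborn mouse back skin were profiled by RNA-seq, starting from 10 ng of total RNA amplified as cDNA and read as 100-nucleotide single reads, per the labels' protocols. The authors deposited raw counts per gene for each of the 6 libraries. The submitters' processing notes name the mm10 build, HTSeq 0.6.1, the aligner TopHat2 2.0.13, DESeq2 1.6.3 and Cufflinks 2.2.1. No source used here gives the annotation or the strand setting of the counting, so reads of overlapping or near-identical genes cannot be assigned with certainty.

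From the counts, edgeR 4.0.16 (R 4.3.3) tested 2KO against control over the 14972 genes that passed its filter on low counts (filterByExpr), with TMM scaling, the quasi-likelihood F test and Benjamini-Hochberg adjustment over all of them, and 0.05 as threshold. Levels are TMM-scaled CPM. Each SE was obtained from the estimate and its F statistic. The test was checked on simulated data. Alternatives were RLE size factors in place of TMM scaling, DESeq2 1.42.0, voom in limma 3.58.1, no filter, and a filter at a mean of 1 CPM. Further ones were Xist (high in control 3, 2KO 1 and 2KO 2) as covariate and a replicate block. The rest were each library left out, and both libraries of number 1 or of number 3 left out.

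The members, lists and tests were chosen with earlier results of these data known. By rule, the text names members past the threshold, the 3 other tested members of highest mean CPM in each class, members whose groups do not overlap, and, of each pathway list, genes past the threshold and the 2 of highest CPM. Ring1, Rnf2, Ptprc and Cd207 were also named by rule. Every other gene given with values (further members, receptors, early genes and markers) was chosen after its values were seen. Gene positions came from the GENCODE GRCm38 annotation, matched by symbol for 94 of 95 members, and promoters from RefSeq on GRCm38.p6 for 68.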

Additional observations from a re-analysis of the deposited data

How the results depend on the processing

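Cxcl12 and Ptges kept their calls under all 15 alternatives. Over 58 named genes the alternatives gave 861 values, of which 746 kept direction and side of the threshold, 64 lost the call, 33 gained it and 18 changed direction. The cause was not tested for these changes, beyond fewer libraries or genes where an alternative removes them.

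Members called higher (2 in the main test) numbered 5 by DESeq2, 4 without a filter, 1 with the CPM filter, 1 with Xist as covariate, 1 without both libraries numbered 3, and 1 to 5 when single libraries were left out. Members called lower (0) numbered 4, 1 without a filter, 5 with the replicate block, 1 without the libraries numbered 3, and 0 to 1 with single libraries left out. Over all genes, 989 higher and 362 lower became 1497 and 771 by DESeq2, 309 and 72 without the libraries numbered 3, and 615 to 854 and 184 to 347 with single libraries left out, and 231 were called lower with Xist.

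Receptors called higher (1) numbered 2 by DESeq2, 0 without the libraries numbered 3, 0 without those numbered 1, and 0 to 1 with single libraries left out. Receptors called lower (1) numbered 3 by DESeq2, 2 without a filter, 0 and 2 without the libraries numbered 3 and 1, and 0 to 2 with single ones left out. NF-κB genes called higher (0) numbered 1 by DESeq2. Those called lower (2) numbered 1 by voom, 1 with Xist, 5 with the block, 0 and 1 without the libraries numbered 3 and 1, and 1 to 3 with single ones left out. Other defense genes called lower (2) numbered 1 by voom, 1 with the block, 0 and 1 without the libraries numbered 3 and 1, and 0 to 1 with single ones left out.

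The labels do not say that a replicate number marks a shared source. Correlations of the deviations of same-numbered libraries were 0.32, 0.10 and -0.13 over all tested genes, and not every library correlated best with its own number. Over the 25 tested members alone the correlations were 0.77, 0.47 and 0.26. There, too, control 2 correlated better with 2KO 3 (0.51) and control 3 better with 2KO 2 (0.41) than with their own numbers. With the replicate block, 3 members were called higher (Cxcl12, Cxcl14 and Defb4) and 5 lower (Cxcl1, Il1f5, Il1rn, Ptgs2 and Tnf). Under it the edgeR adjusted p was 0.00814 for Tnf, 0.00906 for Ptgs2 and 0.0344 for Cxcl1, which were lower in 2KO within each number.

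The direction changed for the following genes. Log2 fold changes were -0.95, -1.27 and -0.75 for Ccl17 by voom, with Xist and with the block, and -6.35 to 1.40 with single libraries left out. For Ccl19 they were -0.84 and -0.40 by voom and block, and -1.27 to 1.18. For Ptgs1 they were 7e-04 with the block, 0.0566 without the libraries numbered 3, and -0.57 to 0.26. Il1a and Ring1 gave 0.0772 and 0.0386 with Xist, and Rnf2 -0.0544 without the libraries numbered 3. With single libraries left out, Cxcl2 ran from -2.70 to 0.98, Nfkbiz from -1.02 to 0.0748 and Cxcr6 from -0.41 to 0.0178.

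The 33 members with too few counts for the test and the 37 at 0 were not tested. Limited depth and a lack of transcript were not told apart for them.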
